A study of Mus musculus with 13 samples.

Results

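The genes described are 10 components of the neuromuscular junction, the synapse between a motor nerve ending and a skeletal muscle fibre. They were chosen by name among the 49315 genes of the deposited count table, as Chrna1, Chrnb1, Chrnd, Chrne, Chrng, Musk, Lrp4, Dok7, Rapsn and Colq. All 10 passed the filter on low counts, which 16496 genes passed in all. The rule names them and uses no measured value, though it was set with earlier results of these data known.

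The study sequenced 13 libraries of mouse skeletal muscle RNA after polyA selection, to compare animals that lack a microRNA locus with animals that carry it, on either of 2 diets. The groups were KO mice on the HFSC diet (n = 3), flox mice on HFSC (n = 4), KO mice on chow (n = 3) and flox mice on chow (n = 3). KO mice are systemic knockouts of miR-181a2b2, and flox mice are homozygous for a floxed miR-181a2b2 locus, for which the labels name no Cre and which the titles call WT. HFSC is not spelled out in the labels, and no source used here gives the strain, sex, age or time on diet. Hindlimb ischemia is named for the series as a whole, with no word on which muscle, limb or time a library comes from. The extraction protocol names white adipose tissue, whereas each source label is skeletal muscle, and in every library the genes of the muscle fibre were abundant. Summed over 16 genes shared by all fibre types, HFSC KO libraries had 71786 to 89119 CPM (read counts scaled to a common library size), HFSC flox libraries 76815 to 97475, chow KO libraries 103102 to 117997 and chow flox libraries 57902 to 112039. The labels do not say outright that no animal gave more than 1 library, so the spread that p-values rest on may be technical in part.

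In a muscle fibre, the few nuclei under the nerve ending transcribe the synaptic genes, while nerve activity keeps most of them low in the other nuclei of the fibre. The adult acetylcholine receptor is built from alpha, beta, delta and epsilon subunits, and the fetal form carries gamma in the place of epsilon. The gamma subunit is known to return, together with more alpha and delta, along the whole fibre when a muscle is denervated, injured or regenerating. In bulk tissue, fewer nuclei of a kind and less RNA per nucleus cannot be told apart.

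The microRNAs encoded at the targeted locus are shown first. The seed (bases 2 to 8), which pairs with target transcripts, is in capitals. Both are from RefSeq on GRCm38.p6, plus strand, at chr2:38852741-38852763 and chr2:38853845-38853868, and both carry the same seed.
mmu-miR-181a-5p: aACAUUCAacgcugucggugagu
mmu-miR-181b-5p: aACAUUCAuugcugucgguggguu
Reads of the precursor genes were at most 2 per library for Mir181a-2 and 0 in all 13 libraries for Mir181b-2, so they do not check the genotype labels. Among the longest annotated 3′ untranslated regions of the 10 synaptic genes, 1 site for this seed was found, in Lrp4, against 21.0% of 21020 genes with at least 1 site. It pairs with the first 6 seed bases and ends in an A, and lies at chr2:91513660-91513688 (GRCm38, plus strand), with the site in capitals.
Lrp4 site: tgggctgttcaGAATGTAgaaaggacgaa

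The promoters of 3 receptor subunit genes are shown next, since Chrng and Chrna1 varied together between libraries and Chrne did not. Each spans 250 bases before to 50 after the RefSeq start (GRCm38.p6), printed along the gene's own strand, at chr1:87205561-87205860 (plus strand), chr2:73580289-73580588 (minus strand) and chr11:70619145-70619444 (minus strand). Capitals mark the E-box, CANNTG, the sequence bound by myogenic factors such as myogenin, and the N-box, CCGGAA, known from synapse-specific transcription. Both motifs were searched on both strands, and no match of one overlapped a match of the other.
Chrng: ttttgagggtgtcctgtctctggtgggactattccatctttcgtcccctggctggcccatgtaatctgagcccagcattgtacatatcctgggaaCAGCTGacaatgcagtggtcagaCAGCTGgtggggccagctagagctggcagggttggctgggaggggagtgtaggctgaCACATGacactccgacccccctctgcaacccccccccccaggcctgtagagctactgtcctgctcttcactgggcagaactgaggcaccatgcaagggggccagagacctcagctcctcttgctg
Chrna1: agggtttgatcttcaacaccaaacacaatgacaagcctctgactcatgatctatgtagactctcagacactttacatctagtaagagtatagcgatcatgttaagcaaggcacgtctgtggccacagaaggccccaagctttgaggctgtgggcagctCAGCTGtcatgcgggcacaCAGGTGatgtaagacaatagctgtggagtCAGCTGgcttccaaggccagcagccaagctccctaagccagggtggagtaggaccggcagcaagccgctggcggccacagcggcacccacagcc
Chrne: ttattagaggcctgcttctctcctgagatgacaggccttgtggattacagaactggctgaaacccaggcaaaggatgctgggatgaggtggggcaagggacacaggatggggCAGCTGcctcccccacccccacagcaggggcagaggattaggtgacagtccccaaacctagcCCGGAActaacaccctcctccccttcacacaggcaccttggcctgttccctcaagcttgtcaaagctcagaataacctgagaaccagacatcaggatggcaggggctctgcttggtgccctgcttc
The windows of Chrng and Chrna1 hold 3 E-boxes each, and that of Chrne holds 1 E-box and 1 N-box, with the N-box 76 bases before the start. Chrnb1 and Musk also had 3 E-boxes, and the pair of windows for Dok7 had 1 and 0. Chrne was the only one of these 6 genes with an N-box. At least 3 E-boxes are found in 17.6% of all 32851 promoter windows of this length, at least 1 in 72.3%, and at least 1 N-box in 14.9%. These matches describe the letters and not binding.

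Counts ran from 20830943 to 45710227 per library (median 29011060). Levels are CPM on TMM library sizes. Tests are edgeR's quasi-likelihood test, with Benjamini-Hochberg adjustment over all 16496 genes and a threshold of 0.05. Fold changes are given on the log2 scale with their standard error. The first principal component of log2 CPM, with 50.7% of the variance, ran from 51.3 to 88.6 in all 3 libraries of chow KO and in chow flox replicate 4, and from -67.8 to -13.3 in the other 9. Slow-fibre genes also set the diets apart. Summed over 11 such genes, HFSC KO libraries had 980 to 1449 CPM and chow KO libraries 8966 to 10540 CPM, while HFSC flox libraries had 930 to 2260 CPM and chow flox libraries 7178 to 9215 CPM. Of the 11 genes, 10 fell on HFSC in KO, against 10.6% of all genes called lower there, and 9 fell on HFSC in flox, against 0.303% of all genes. The labels name no muscle, so a difference in the muscle taken and the diet cannot be told apart in the diet results below, those of Rapsn and Lrp4 included.

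The gamma subunit gene Chrng (ENSMUSG00000026253, chromosome 1, 87204657 to 87212694, plus strand) had the widest spread between libraries of 1 group among the 10 genes. It had 1.65, 32.9 and 2.11 CPM in HFSC KO replicates 2, 3 and 4, and 13.6, 3.60, 5.38 and 8.80 CPM in HFSC flox replicates 1 to 4. It had 5.63, 0.839 and 0.129 CPM in chow KO replicates 1, 2 and 3, and 5.81, 4.75 and 1.49 CPM in chow flox replicates 2, 3 and 4. HFSC KO replicate 3 was the highest of the 13 libraries with 1003 counts, and chow KO replicate 3 the lowest with 3 counts, so every pair of groups overlapped.

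The delta subunit gene Chrnd lies next to Chrng on chromosome 1 (87190607 to 87200070, plus strand). It had 3.94, 57.6 and 4.75 CPM in HFSC KO, 29.7, 6.79, 12.2 and 29.3 CPM in HFSC flox, 11.7, 4.95 and 4.05 CPM in chow KO, and 12.2, 9.32 and 4.04 CPM in chow flox, with replicates in the order used for Chrng. HFSC KO replicate 3 was again the highest, and the other HFSC KO libraries were below every HFSC flox library.

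The alpha subunit gene Chrna1, which encodes the main part of the acetylcholine binding site (chromosome 2, 73563215 to 73580338, minus strand), followed the same libraries. It had 28.6, 128 and 21.7 CPM in HFSC KO, 91.1, 35.2, 44.1 and 65.1 CPM in HFSC flox, 53.3, 26.0 and 22.2 CPM in chow KO, and 52.7, 43.6 and 40.2 CPM in chow flox. The replicate that was highest for Chrng was highest for Chrna1 in each of the 4 groups.

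The beta subunit gene Chrnb1 (chromosome 11, 69784036 to 69795943, minus strand) varied less. It had 47.2, 108 and 45.2 CPM in HFSC KO, 58.4, 36.7, 50.9 and 60.4 CPM in HFSC flox, 45.2, 29.2 and 32.9 CPM in chow KO, and 58.1, 43.9 and 40.5 CPM in chow flox. HFSC KO replicate 3 stood above the others here too, and chow KO replicate 2 was the lowest.

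The epsilon subunit gene Chrne, the adult counterpart of Chrng (chromosome 11, 70614883 to 70619216, minus strand), was nearly level. It had 16.4, 13.3 and 12.4 CPM in HFSC KO, 12.9, 11.4, 17.5 and 15.4 CPM in HFSC flox, 13.1, 11.5 and 12.9 CPM in chow KO, and 16.5, 13.7 and 13.2 CPM in chow flox. The highest of all libraries was 1.53 times the lowest, against 254 times for Chrng. The 3 chow KO libraries were below the 3 chow flox libraries, but the difference of -0.21 ± 0.16 did not pass (adjusted p = 0.367).

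**Figure D1:**
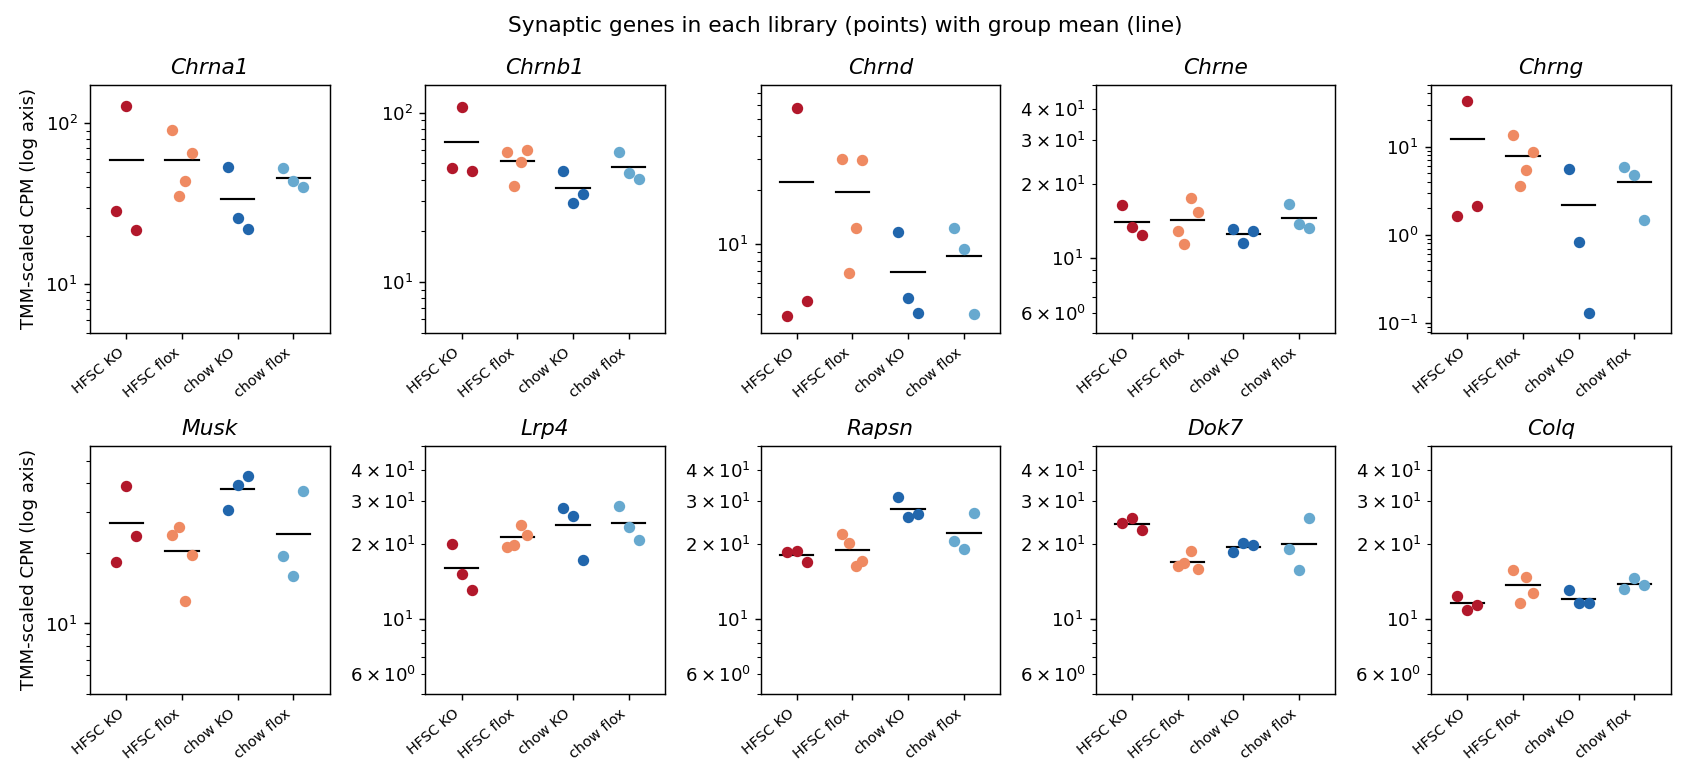
CPM of each of the 10 synaptic genes in each library (points, log axis) with the mean of each group (line), in HFSC KO (n = 3), HFSC flox (n = 4), chow KO (n = 3) and chow flox (n = 3). Chrng, Chrnd and Chrna1 scatter widely within groups, up to 32.9, 57.6 and 128 CPM in HFSC KO replicate 3, whereas Chrne and Colq stay within a narrow band.

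Pooled over the groups, the within-group SD of log2 CPM was 1.74 for Chrng, 1.29 for Chrnd and 0.81 for Chrna1, against a median of 0.27 over all genes tested. Chrng lay at the 99.9th percentile of the tested genes, Chrnd at the 99.4th and Chrna1 at the 95.0th. The SD was 0.49 for Musk and 0.43 for Chrnb1. It was 0.27 for Lrp4, 0.21 for Chrne, 0.18 for Rapsn and Dok7, and 0.14 for Colq. Group membership accounted for 34.8% of the variance of Chrng and 16.2% of that of Chrna1, against 70.0% for Rapsn, 60.7% for Dok7 and a median of 48.8% over all genes. Chrng, Chrnd and Chrna1 thus differed most between libraries of 1 group, while the subunit gene Chrne was below the median of all genes.

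To ask whether the subunit genes varied together, each library's deviation from its group mean was compared between genes over the 13 libraries, by exact permutation of libraries within groups (5184 arrangements, two-sided, 17 pairs tested). Chrnd followed Chrng with a Pearson r of 0.89 (exact p = 0.000193, adjusted p = 0.00328) and a Spearman rho of 0.91 (exact p = 0.000193). Chrna1 followed Chrng with r = 0.89 (exact p = 0.000579, adjusted p = 0.00492) and rho = 0.89 (exact p = 0.000579). The 2 libraries whose deviation of Chrng lay farthest from the median deviation were chow KO replicate 1 and HFSC KO replicate 3. Without them r was 0.84 for Chrnd and 0.79 for Chrna1. Chow KO replicate 3, with 3 counts of Chrng, was kept. For Chrnb1 r was 0.83 and rho 0.76, and neither passed after adjustment (exact permutation, adjusted p = 0.0503 and 0.0779). No relation with Chrng was detected for Chrne, with r = 0.02 and rho = 0.06 (exact p = 0.941 and 0.868), or for Musk, with r = 0.03 and rho = 0.02 (exact p = 0.933 and 0.968). The other 4 genes gave r with Chrng from -0.24 for Dok7 to 0.40 for Lrp4 and rho from -0.24 to 0.32, none past the threshold (exact permutation, adjusted p from 0.716 to 0.848 for r). Of the 8 other relations of Chrne none passed. The strongest were with Musk, at r = -0.66 and rho = -0.63 (exact permutation, adjusted p = 0.176 and 0.229), and with Lrp4, at r = 0.58 and rho = 0.70 (adjusted p = 0.0926 and 0.0612).

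**Figure D2:**
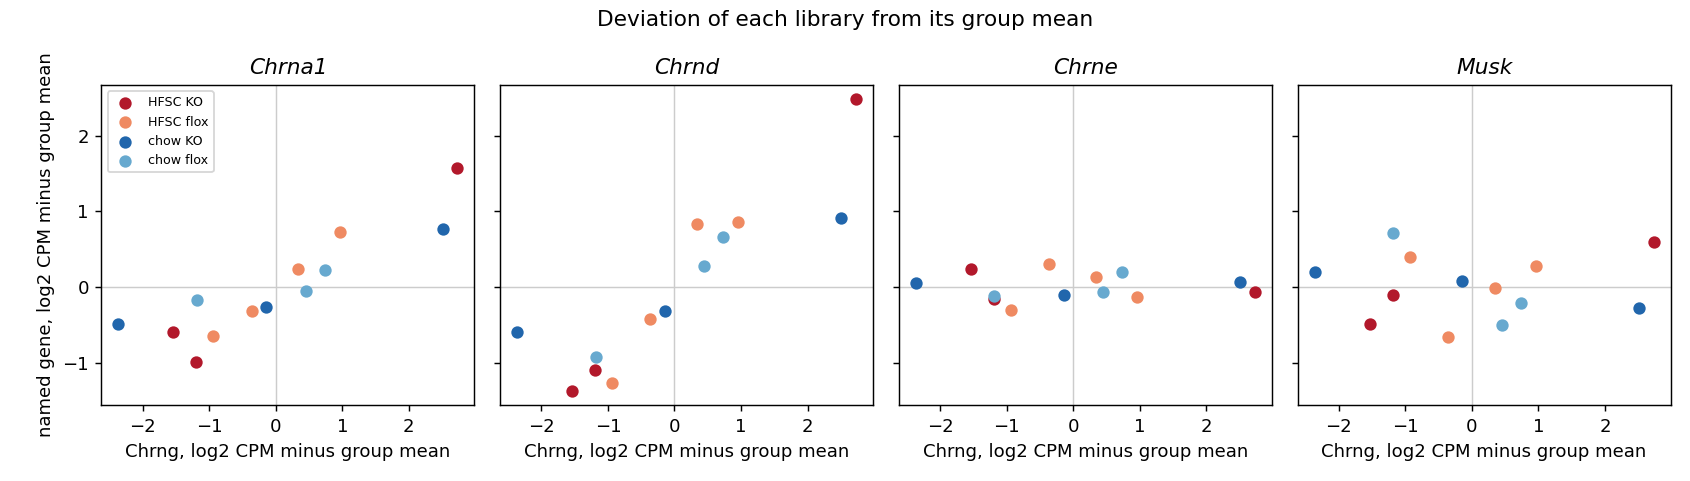
Each point is 1 of 13 libraries, with the log2 CPM of Chrng minus its group mean on the x axis and the same for Chrna1, Chrnd, Chrne or Musk on the y axis. Chrna1 and Chrnd climb with Chrng (r = 0.89 for each), while Chrne lies flat (r = 0.02) and Musk shows no slope (r = 0.03).

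Among all tested genes, those most like Chrng in log2 CPM over the 13 libraries were Aldh3a1 (r = 0.98), Krt18, Runx1 (r = 0.97), Sh3d19 and Aif1l. Those most like Chrna1 were Igfn1 (r = 0.96), Rb1, Kcnn3, Eda2r and Ncam1 (r = 0.95). Likeness was lower for Chrne, with Prokr1 (r = 0.83), Ano1, Cstad, Hmbox1 and Mir7-1. For Musk the nearest genes were Cd3eap (r = 0.96), Hectd2, Cox19, Lrrc2 and Bop1. These were picked as the highest of 16496 genes and are a description only. Runx1, a transcription factor known to rise in denervated muscle, had 12.1, 71.6 and 13 CPM in HFSC KO, 46.8, 24.7, 21.9 and 29.6 CPM in HFSC flox, 16.2, 5.51 and 2.84 CPM in chow KO, and 26.3, 32.4 and 8.80 CPM in chow flox.

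Runx1, Kcnn3 and Ncam1 are also on a list of 20 genes of the denervation response, so the level of that list is given by library. Its median log2 CPM, relative to each gene's mean over the libraries, was 1.43 in HFSC KO replicate 3 and -0.36 and -0.24 in HFSC KO replicates 2 and 4, against 0.92, -0.19, -0.02 and 0.28 in HFSC flox replicates 1 to 4. It was 0.16, -0.61 and -0.99 in chow KO replicates 1, 2 and 3, against 0.16, 0.09 and -0.46 in chow flox replicates 2, 3 and 4. In each group the library with the most Chrng was also the highest on this list. Runx1, Kcnn3 and Ncam1 were picked above for likeness to Chrng or Chrna1 in these same libraries. The match of the list with Chrng was thus fixed in part beforehand and is no separate support. A list of 12 genes of satellite cells and regeneration stood at 1.16 in HFSC KO replicate 3, and at -0.32 to 0.57 in the other libraries apart from chow KO replicate 3, at -0.72. Within each group this list too was highest in the library with the most Chrng. Beside HFSC KO replicate 3, it stood at 0.26 in HFSC flox replicate 1, 0.16 in chow KO replicate 1 and 0.57 in chow flox replicate 2. Myog, Myh3 and Myh8 are on both lists, so the lists are not separate readings. The part of the genes of either list in the subunit values was not tested.

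Levels of different genes are roughly comparable per length of exon, so the switch between the gamma and epsilon subunits was read on CPM per kilobase. Chrng stood at 4.08%, 100.3% and 6.88% of Chrne per kilobase in HFSC KO replicates 2, 3 and 4, and at 42.7%, 12.8%, 12.5% and 23.2% in HFSC flox replicates 1 to 4. It stood at 17.5%, 2.95% and 0.407% in chow KO replicates 1, 2 and 3, and at 14.3%, 14.1% and 4.56% in chow flox replicates 2, 3 and 4. On this measure HFSC KO replicate 3 was the one library in which the gamma transcript matched the epsilon transcript, and in the other 12 gamma was at most 42.7% of epsilon. The measure rests on exon lengths of 4163 bases for Chrng and 1690 for Chrne, each the union of all annotated exons. Where the union is longer than the transcripts present, the gene reads too low per kilobase. Without division by length there were 247 counts of Chrng per 100 of Chrne in HFSC KO replicate 3, and 105 in HFSC flox replicate 1.

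The log2 ratio of Chrng to Chrne counts (with 0.5 added to each) averaged -1.52 ± 2.47 in HFSC KO (SD, n = 3), -1.02 ± 0.84 in HFSC flox (n = 4), -3.79 ± 2.60 in chow KO (n = 3) and -2.05 ± 0.94 in chow flox (n = 3). KO minus flox was -0.49 on HFSC (exact permutation test, two-sided, p = 0.743) and -1.74 on chow (exact p = 0.4). HFSC minus chow was 2.28 in KO (exact p = 0.4) and 1.03 in flox (exact p = 0.343). With 3 libraries against 3 the smallest p is 0.1, and with 3 against 4 it is 0.0571, so no difference could have passed. Without HFSC KO replicate 3, the ratio in KO was 0.87 higher on HFSC than on chow.

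**Figure D3:**
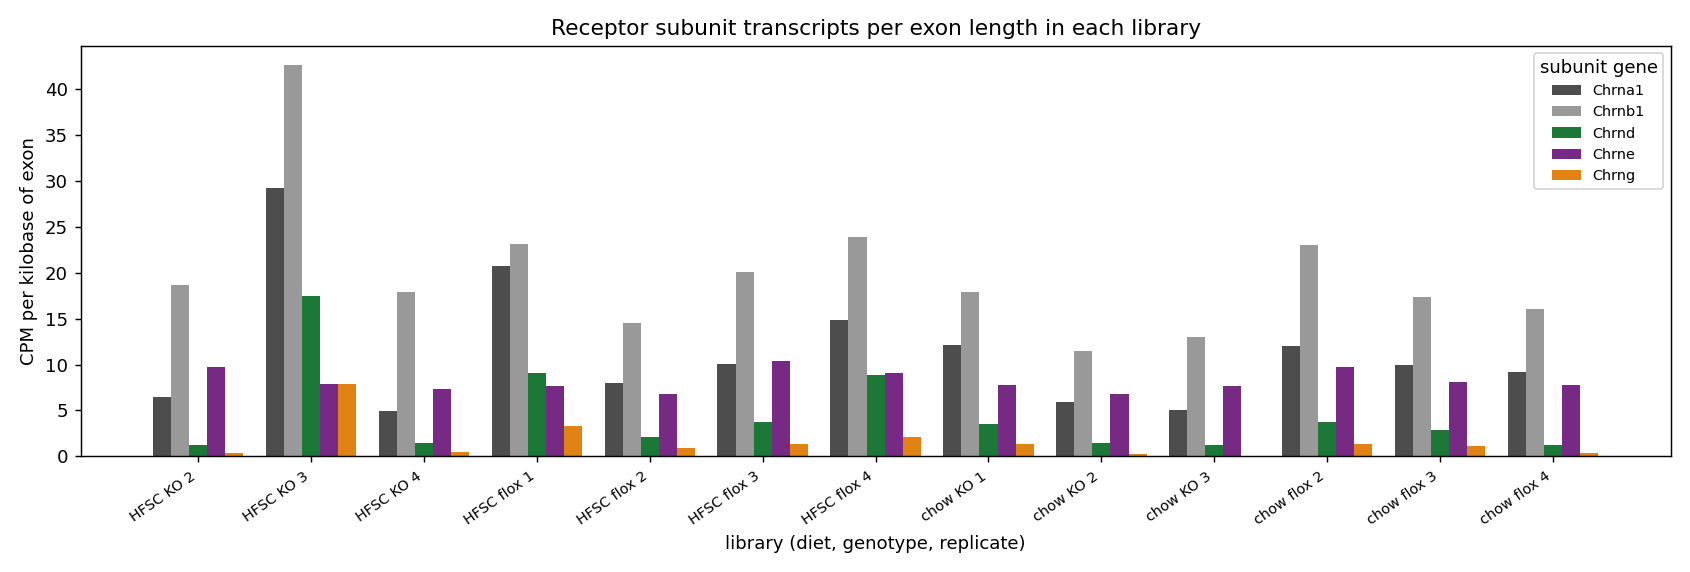
CPM per kilobase of exon of the 5 receptor subunit genes in each of the 13 libraries, as bars from 0 grouped by library. Chrnb1 is the tallest bar in every library. Chrng reaches the height of Chrne in HFSC KO replicate 3 (7.90 and 7.87 CPM per kilobase) and is at most 3.26 in the other 12.

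Per kilobase of exon, Chrnb1 averaged 26.4 ± 14.1 CPM in HFSC KO and 14.1 ± 3.32 CPM in chow KO, and Chrna1 13.6 ± 13.6 CPM in HFSC KO and 7.71 ± 3.87 CPM in chow KO (SD, n = 3 each). Chrne averaged 8.31 ± 1.23 CPM per kilobase in HFSC KO and 7.40 ± 0.490 in chow KO. The order Chrnb1, Chrna1, Chrne held for these group means in HFSC KO and, with 20.4, 13.4 and 8.47 CPM per kilobase, in HFSC flox. Chrna1 and Chrne changed places in single libraries, since Chrne was the higher of the pair in HFSC KO replicates 2 and 4, HFSC flox replicate 3 and chow KO replicates 2 and 3. Outside the receptor, Rapsn had 10.05 ± 0.568 CPM per kilobase in HFSC KO and 15.4 ± 1.55 in chow KO, and Lrp4 only 1.53 ± 0.339 in HFSC KO and 2.27 ± 0.549 in chow KO.

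Rapsn encodes rapsyn, the scaffold that binds the receptors and holds them in a cluster (ENSMUSG00000002104, chromosome 2, 91035620 to 91045729, plus strand). It had 18.6, 18.8 and 16.9 CPM in HFSC KO, 22.1, 20.3, 16.4 and 17.1 CPM in HFSC flox, 30.9, 25.7 and 26.6 CPM in chow KO, and 20.6, 19.1 and 26.8 CPM in chow flox. All 3 chow KO libraries lay above all 7 HFSC libraries, and chow flox replicate 4 was beside them. The antisense transcript Gm13778 shares 4 exon bases with it, and the strand setting, which is not given in the sources used here, decides the reads over those bases alone.

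Lrp4 encodes the receptor for agrin, the signal that the nerve releases (chromosome 2, 91457511 to 91513779, plus strand). It had 20.01, 15.1 and 13.1 CPM in HFSC KO, 19.6, 19.9, 23.9 and 21.9 CPM in HFSC flox, 28.1, 26.1 and 17.3 CPM in chow KO, and 28.7, 23.5 and 20.9 CPM in chow flox. The HFSC KO libraries included the 2 lowest values, and HFSC KO replicate 2 overlapped the chow KO range.

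Musk encodes the receptor kinase that Lrp4 switches on (chromosome 4, 58285960 to 58374303, plus strand). It had 18.4, 38.8 and 23.8 CPM in HFSC KO, 23.9, 25.9, 12.5 and 19.6 CPM in HFSC flox, 30.8, 39.2 and 42.9 CPM in chow KO, and 19.5, 15.9 and 37.0 CPM in chow flox. Chow flox replicate 4 and HFSC KO replicate 3 fell within the chow KO range, and the other 8 libraries outside chow KO were below it.

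Dok7 encodes the adaptor that activates MuSK from inside the fibre (chromosome 5, 35056766 to 35087839, plus strand). It had 24.4, 25.5 and 22.8 CPM in HFSC KO, 16.4, 16.8, 18.8 and 15.9 CPM in HFSC flox, 18.7, 20.2 and 19.8 CPM in chow KO, and 19.1, 15.7 and 25.5 CPM in chow flox. The HFSC KO libraries lay above all HFSC flox and all chow KO libraries.

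Colq encodes the collagen tail that anchors acetylcholinesterase in the synaptic cleft (chromosome 14, 31523082 to 31591343, minus strand). It had 12.4, 10.9 and 11.4 CPM in HFSC KO, 15.8, 11.6, 14.8 and 12.7 CPM in HFSC flox, 13.1, 11.6 and 11.6 CPM in chow KO, and 13.3, 14.6 and 13.7 CPM in chow flox. The highest library was 1.45 times the lowest, the narrowest range of the 10 genes. Colq shares 199 exon bases with Gm49387 on the same strand, so some of its reads may be split with that gene.

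On HFSC, the question was how the knockout differed from flox. None of the 10 genes passed edgeR's test, against 0.0182% of all genes tested, while 2 had an unadjusted p under 0.05, as did 10.4% of all genes. Dok7 differed by 0.52 ± 0.14 (adjusted p = 0.232), with all 3 HFSC KO libraries above all 4 HFSC flox libraries. Groups that do not overlap were seen for 12.7% of all genes in this contrast, and for 1 of the 10, Dok7. Lrp4 differed by -0.41 ± 0.18 (adjusted p = 0.470). DESeq2 called 0 of the 10 and limma voom with sample weights called 1, Dok7. The median log2 fold change of the 10 genes was 0.09, against 0.00 for all genes. Chrng differed by 0.64 ± 1.01, and by -2.06 without HFSC KO replicate 3, so this 1 library decided its sign.

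On chow, the same comparison called none of the 10 genes, against 11.5% of all genes, and 1 had an unadjusted p under 0.05, as did 33.8% of all genes. That gene was Rapsn, at 0.33 ± 0.15 (adjusted p = 0.140). Musk stood at 0.64 ± 0.35 (adjusted p = 0.20), and Chrng at -0.85 ± 1.16 (adjusted p = 0.623). Colq and Chrne were the 2 genes whose chow KO libraries all lay on 1 side of chow flox, below it, with 24.8% of all genes not overlapping in this contrast. The median over the 10 genes was -0.20, against -0.01 for all genes. DESeq2 called 0 and voom called 5, namely Chrnb1, Chrne, Chrng, Musk and Rapsn. Without chow flox replicate 4, the chow flox library beside the chow KO libraries on the first component, edgeR called 2, Musk and Rapsn.

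In flox mice, HFSC against chow called none of the 10 genes, against 0.418% of all genes. None had an unadjusted p under 0.05, against 12.8% of all genes, and neither DESeq2 nor voom called any. Chrnd stood at 1.19 ± 0.86 (adjusted p = 0.603), Chrng at 0.96 ± 1.06 (adjusted p = 0.760) and Rapsn at -0.22 ± 0.14 (adjusted p = 0.532). All 10 genes overlapped between the groups, against 9.86% of all genes that did not. The median of the 10 was -0.01, equal to that of all genes.

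In KO mice, HFSC against chow called 2 of the 10 genes, both lower, against 25.5% of all genes called and 10.6% called lower. An unadjusted p under 0.05 was found for 3 of the 10 and for 40.7% of all genes. Rapsn fell by 0.62 ± 0.15 (adjusted p = 0.0131), to 18.1 ± 1.02 CPM in HFSC KO, against 27.8 ± 2.80 CPM in chow KO (SD, n = 3 each), with no overlap. Lrp4 fell by 0.57 ± 0.20 (adjusted p = 0.0497), to 16.1 ± 3.56 CPM in HFSC KO, against 23.8 ± 5.77 CPM in chow KO, and the groups overlapped. Rapsn kept its call when any 1 of the 13 libraries was left out (adjusted p from 0.00220 to 0.0466), and Lrp4 kept it in 3 of these 13 fits (adjusted p from 0.0296 to 0.158). Lrp4 also missed the threshold with library totals (adjusted p = 0.257), the replicate block (adjusted p = 0.126), only the groups compared (adjusted p = 0.0634) and voom (adjusted p = 0.0611). Scaling to 16 genes shared by all fibres moved the median of all genes to 0.43, and on that scale Rapsn stood at -0.21 (adjusted p = 0.276) and Lrp4 at -0.18 (adjusted p = 0.587). The 2 genes called were then Chrnb1 and Dok7, both higher. Relative to the median of all genes, Rapsn stood at -0.65 on that scale, against -0.64 with TMM.

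The other 8 genes did not pass in KO mice. Chrnb1, at 0.90 ± 0.31, lay at the threshold (adjusted p = 0.0511), Chrng stood at 2.44 ± 1.18 (adjusted p = 0.139), and Chrnd at 1.67 ± 0.92 (adjusted p = 0.189). Dok7 was at 0.31 ± 0.15 (adjusted p = 0.127), with all HFSC KO libraries above all chow KO libraries. It passed with library totals (adjusted p = 0.0134), pan-fibre scaling (adjusted p = 0.00561), only the groups compared (adjusted p = 0.0348) and voom (adjusted p = 0.0238), and Chrnb1 passed with pan-fibre scaling (adjusted p = 0.0216), DESeq2 (adjusted p = 0.0270) and voom (adjusted p = 0.0394). Rapsn and Dok7 were the genes with no overlap here, 2 of 10, where 50.6% of all genes had none. The median of the 10 was 0.24, against 0.02 for all genes. Without HFSC KO replicate 3, Chrng stood at -0.26, Chrnd at -0.67 and Chrna1 at -0.43, each the opposite sign of the value with it. The comparisons in KO and in flox mice on each diet share libraries, so their values are set side by side and not counted as separate support.

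**Figure D4:**
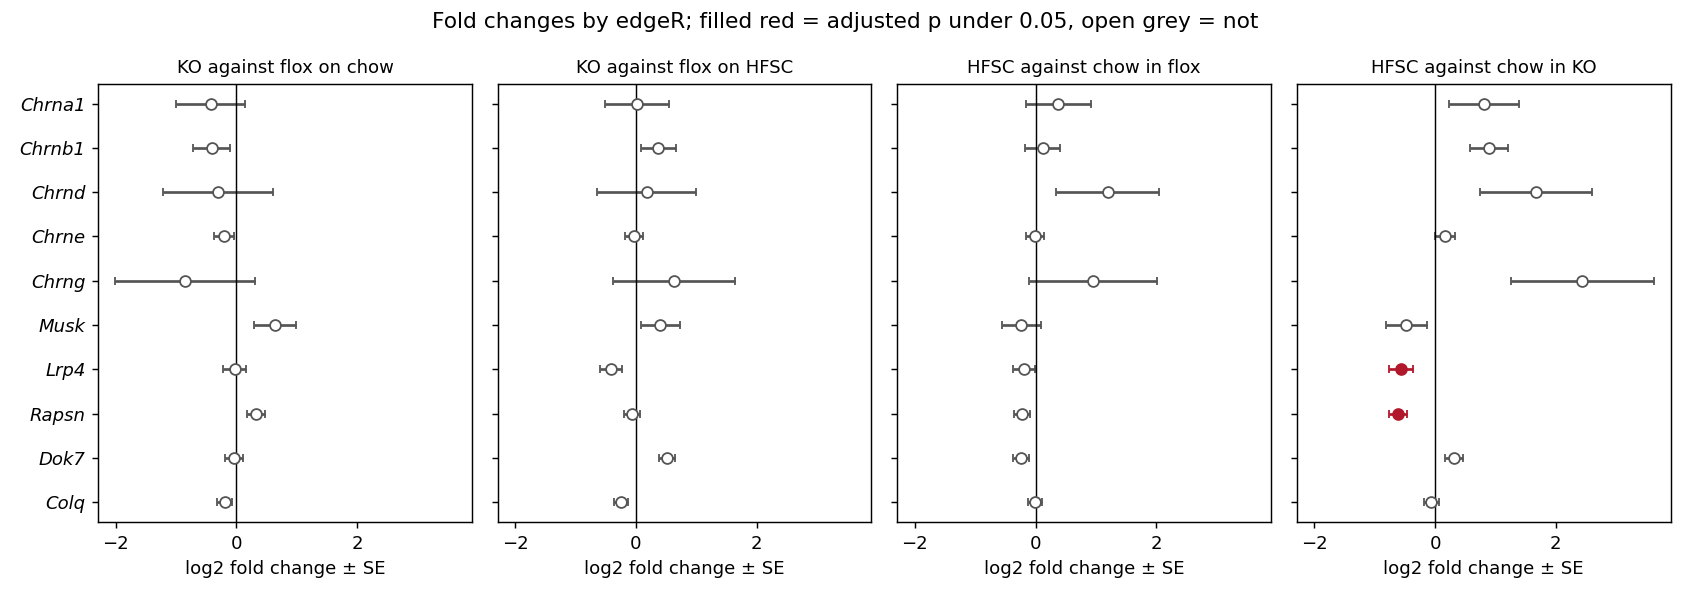
Log2 fold change ± standard error by edgeR for the 10 synaptic genes in 4 comparisons: KO against flox on chow, KO against flox on HFSC, HFSC against chow in flox and HFSC against chow in KO. Filled red points have an adjusted p under 0.05 and are Rapsn (-0.62) and Lrp4 (-0.57) in the last panel, and open grey points do not.

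Averaged over both genotypes, HFSC against chow called 1 of the 10 genes, Rapsn, which fell by 0.42 ± 0.10 (adjusted p = 0.0178), against 15.1% of all genes called and 6.17% called lower. The unadjusted p was under 0.05 for 4 of the 10 and for 32.7% of all genes. Pan-fibre scaling ended this call (-0.23, adjusted p = 0.155). Lrp4 stood at -0.38 ± 0.13 (adjusted p = 0.0711), and passed with DESeq2 (adjusted p = 0.0475) and voom (adjusted p = 0.0139). Averaged over both diets, KO against flox called 0 of the 10 by edgeR, where 0 of all 16496 genes were called, and 3 had an unadjusted p under 0.05, against 21.8% of all genes: Musk at 0.52 ± 0.24, Dok7 at 0.24 ± 0.10 and Colq at -0.22 ± 0.09. DESeq2 called 0 of the 10 there and 1292 of all genes, and voom 5 and 6441. Without chow flox replicate 4, edgeR called 2 of the 10, Musk and Dok7, and 4824 of all genes. The test of whether the genotype difference changed with diet also called 0 of the 10 and 0 of all genes, with Dok7 nearest at 0.55 ± 0.20 (adjusted p = 0.107), the 1 gene with an unadjusted p under 0.05, which 29.2% of all genes had. DESeq2 called 0 of the 10 and 1904 of all genes in that test, and voom called 2, Rapsn and Dok7, and 7061 of all genes. Without chow flox replicate 4, edgeR called 1 of the 10, Rapsn, and 5928 of all genes.

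Genes that work beside the 10 at the synapse were read from a list of 26, of which 25 were tested. On HFSC in KO mice 6 rose and 1 fell, against 14.9% of all genes called higher and 10.6% called lower. With pan-fibre scaling 13 rose and none fell, and with voom 9 rose and 2 fell. Lama4, a laminin chain of the fibre's basement membrane, had 50.4 ± 4.63 CPM in HFSC KO and 18.4 ± 2.75 CPM in chow KO (1.45 ± 0.24, adjusted p = 0.00295). Utrn, which encodes utrophin, the dystrophin relative of the synapse, had 81.5 ± 4.09 and 46.1 ± 6.44 CPM in HFSC KO and chow KO (0.82 ± 0.14, adjusted p = 0.00331). Macf1, a linker of microtubules and actin (0.57 ± 0.13), and Cttn, an actin regulator (0.63 ± 0.15), rose too. Lama4 and Utrn kept their calls in all 13 fits that left out 1 library, Macf1 in 12 and Cttn in 11, while 2 rose and none fell without chow KO replicate 3. Agrn, the gene of agrin, stood at 0.60 ± 0.25 (adjusted p = 0.0914), and Ache, that of acetylcholinesterase, at 0.09 ± 0.18 (adjusted p = 0.740).

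On chow, 3 of these 25 genes fell in KO, Lama4 (-1.07 ± 0.24, adjusted p = 0.0202), Sntb2 (-0.88 ± 0.22, adjusted p = 0.0292) and Cttn (-0.54 ± 0.15, adjusted p = 0.0365), and none rose, against 10.1% of all genes called lower. With library totals 6 fell and 1 rose, with pan-fibre scaling 10 fell, and with voom 14 fell and 5 rose, while none fell with the replicate block or with only the groups compared. None fell without chow flox replicate 2 or 3, or chow KO replicate 2 or 3, and 7 fell and 3 rose without chow flox replicate 4. The chow KO libraries also had less of all 18 genes of fibroblasts and matrix, which fell by edgeR with a median of -2.30 (0 of 18 without chow flox replicate 3 or chow KO replicate 2 or 3), and in KO mice all 18 rose on HFSC with a median of 2.24. Macrophage and endothelial genes moved too. Summed over 15 macrophage genes, HFSC KO libraries had 262 to 325 CPM, HFSC flox libraries 263 to 421, chow KO libraries 49.1 to 91.1 and chow flox libraries 131 to 1221. By edgeR 14 of the 15 fell in KO on chow, and 10 rose on HFSC in KO mice (5 and 6 when replicate 3 or 2 of chow KO was left out). Over 12 endothelial genes, HFSC KO libraries had 611 to 683 CPM, HFSC flox libraries 446 to 668, chow KO libraries 272 to 344 and chow flox libraries 316 to 582. Of these 3 fell in KO on chow (10 without chow flox replicate 4), and in KO mice 10 rose and 1 fell on HFSC. None of the macrophage or endothelial genes fell on chow without chow flox replicate 3 or chow KO replicate 2 or 3. The part of these cells in the values of Lama4, Utrn and the other synapse genes was not tested. On HFSC no gene of the synapse list was called between KO and flox, and in flox mice none between the diets, by edgeR. Without chow flox replicate 4, 1 of the 25 rose on HFSC in flox mice.

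Of the 20 genes of the denervation response, 4 rose and 1 fell on HFSC in KO mice, against 14.9% of all genes called higher and 10.6% called lower, and with voom 3 rose and 4 fell. The median of the list was 1.18, against 0.02 for all genes, and it was 0.07 without HFSC KO replicate 3 and 0.66 with voom. Cdkn1a, an inhibitor of the cell cycle, had 100.5 ± 36.0 CPM in HFSC KO and 18.3 ± 12.7 CPM in chow KO (2.45 ± 0.50, adjusted p = 0.00673). Fbxo30, a ubiquitin ligase of muscle wasting, had 36.7 ± 7.46 CPM in HFSC KO and 21.2 ± 0.428 CPM in chow KO (0.79 ± 0.15, adjusted p = 0.00497), and Trim63, the ligase MuRF1, stood at 1.27 ± 0.34 (adjusted p = 0.0186). Fbxo32, also on the list, was not called and went the other way, with 449 ± 99.2 CPM in HFSC KO and 613 ± 89.2 CPM in chow KO. Dach2, a repressor of the synaptic programme that is known to fall after denervation, fell to 0.754 ± 0.310 CPM in HFSC KO, against 9.47 ± 1.89 CPM in chow KO (-3.64 ± 1.07, adjusted p = 0.0281). Without HFSC KO replicate 3, 3 of the list rose and 1 fell, and 2 rose and none fell without chow KO replicate 3 or HFSC KO replicate 4. Cdkn1a and Fbxo30 kept their calls in all 13 such fits, Trim63 in 10 and Dach2 in 8. In flox mice edgeR called none of the 20 between the diets, and 4 rose on HFSC without chow flox replicate 4. On chow, edgeR called 1 of the 20 between KO and flox, Fbxo32, higher in KO, against 11.5% of all genes called. Fbxo32 kept this call in 4 of the 13 fits that left out 1 library, and voom called 4 of the list higher and 9 lower. In HFSC against chow in KO, Myog, which encodes myogenin, stood at 1.31 ± 0.74 (adjusted p = 0.202), with 37.9 CPM in HFSC KO replicate 3 and 6.44 and 6.86 CPM in the other HFSC KO libraries.

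Markers of the other cells at the synapse were mostly near 0. Of 11 motor axon genes 4 passed the filter, Chat, which makes acetylcholine, had at most 1 count in a library, and Mnx1 had 0 in all 13, so the nerve side was not readable in these libraries. Syt2, a synaptotagmin of the nerve ending, was the 1 of the 4 that was called, at -0.999 ± 0.266 in KO against flox on chow (adjusted p = 0.0337) and 0.997 ± 0.268 in HFSC against chow in KO (adjusted p = 0.0198), where 10.1% and 14.9% of all genes were called in these directions. It kept the first call in 8 of the 13 fits that left out 1 library, losing it without chow flox replicate 2 or 3 or any 1 of the chow KO libraries, and the second in 10, losing it without replicate 3 of chow KO, or replicate 3 or 4 of HFSC KO. Of 12 Schwann cell genes 11 were tested, with medians between -0.03 and 0.19 in the 4 comparisons. Of 16 genes of other acetylcholine receptors, nicotinic and muscarinic, 5 were tested, and edgeR called none in any of the 4 comparisons.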

How the data were processed

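Raw read counts per Ensembl gene were deposited by the authors, who name Trimmomatic 0.36, STAR 2.5.2b, Subread 1.5.2 with featureCounts, and GRCm38, per the submitters' processing notes. No annotation release, strand setting or rule for reads with several alignments was found in the labels or the file, so overlapping genes cannot be told apart. Symbols and coordinates come from GENCODE M21.

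All 13 libraries entered 1 edgeR 4.0.16 quasi-likelihood model (R 4.3.3) with 4 group means, TMM factors and no covariate. The low-count filter was filterByExpr, log2 CPM used a prior count of 2, and p-values were adjusted by Benjamini-Hochberg. Standard errors were derived from the F statistic. On simulated counts for 16496 genes, with changes set in HFSC KO, the fit was checked before use for HFSC against chow in KO. Each simulated gene had the typical spread of genes at its level, and no library stood apart from its group. The check therefore does not cover genes such as Chrng or libraries such as HFSC KO replicate 3. Alternatives were RLE factors, library totals, scaling to 16 pan-fibre genes, no filter, only the groups compared, a replicate block, each library left out, DESeq2 1.42.0 and limma 3.58.1 voom. Pairs of replicates differed by more than sampling noise (chi-square per degree of freedom from 10.5 to 193).

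The 10 genes and the other lists were chosen with earlier results of these data known. All 10 are named in each comparison or summarised. From the other lists up to 4 called genes with the smallest p are named, and Agrn, Ache, Fbxo32, Myog and Runx1 were added after their values were seen.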

Additional observations from a re-analysis of the deposited data

How the results depend on the processing

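Of 900 alternative values for the 43 single-gene fold changes given, 807 kept their direction and side of the threshold. The others were 17 that lost a call, 28 that gained a call and 48 that changed sign. Most of the 807 were uncalled values that stayed uncalled. Only Rapsn and Lrp4 in HFSC against chow in KO, and Rapsn averaged over genotypes, had a call to lose. Of the 17 lost calls, 10 were of Lrp4 with a library left out, and Lrp4 kept its call in 3 of these 13 fits. The remaining lost calls were of Lrp4 under other settings and of Rapsn with pan-fibre scaling.

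Counts of the 10 genes called moved as follows. On chow, KO against flox called 0, and 1 with library totals, 2 with pan-fibre scaling, 5 with voom and 0 to 2 with 1 library left out (2 without chow flox replicate 4). On HFSC it called 0, and 1 with voom. HFSC against chow in KO called 2, Lrp4 and Rapsn, and 4 with voom, 3 with DESeq2 and 1 to 3 with 1 library left out. The 2 called there were Rapsn and Dok7 with library totals or only the groups compared, and Chrnb1 and Dok7 with pan-fibre scaling. Averaged over genotypes, the diet called 1, and 0 with pan-fibre scaling, 2 with DESeq2, 2 with voom and 1 to 2 with 1 library left out. Averaged over diets, the genotype called 0, and 5 with voom and 0 to 2 with 1 left out. The interaction called 0, and 2 with voom and 0 to 1 with 1 left out.

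No pairing of libraries by replicate number was detected. Same-numbered deviations correlated from -0.34 to 0.08, and differently numbered ones from -0.25 to 0.39. So few libraries cannot establish that pairing is absent. With the replicate block, HFSC against chow in KO called 1 of the 10 genes and 2382 of all genes, KO against flox on chow called 0 of all genes, and the differences in HFSC against chow in KO were 0.027 for Colq, in KO against flox on chow 0.022 for Dok7, in KO against flox on HFSC -0.023 for Chrnd and 0.011 for Rapsn, and in HFSC against chow in flox -0.0025 for Chrnb1.

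Other changes of sign were in comparisons in which the main model did not call the gene. In KO against flox on chow they were Rapsn at -0.074 (pan-fibre scaling) and Dok7 at 0.056 (voom). In KO against flox on HFSC they were Chrna1 at -0.0090 (RLE), -0.0067 (pan-fibre scaling), -0.0064 (DESeq2) and -0.84 (voom), and with voom Chrnd at -1.60, Chrne at 0.023 and Chrng at -1.47. In HFSC against chow in flox they were Chrnb1 at -0.041 (library totals) and -0.12 (voom), and with voom Musk at 0.029 and Colq at 0.046. In HFSC against chow in KO it was Colq, at 0.11 (library totals) and 0.34 (pan-fibre scaling). The cause was not tested.

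With 1 library left out, log2 differences ran through 0 in these ranges. For KO against flox on chow they were -0.92 to 0.020 for Chrnd, -0.16 to 0.16 for Lrp4 and -0.20 to 0.17 for Dok7. For KO against flox on HFSC they were -1.23 to 0.39 for Chrna1, -0.16 to 0.57 for Chrnb1, -2.17 to 0.67 for Chrnd, -0.16 to 0.079 for Chrne, -2.06 to 1.15 for Chrng, -0.13 to 0.017 for Rapsn and -1.90 to 0.40 for the ratio of Chrng to Chrne. For HFSC against chow in flox they were -0.12 to 0.11 for Chrne, -0.44 to 0.21 for Musk and -0.088 to 0.057 for Colq. For HFSC against chow in KO they were -0.43 to 1.30 for Chrna1, -0.67 to 2.29 for Chrnd and -0.26 to 4.62 for Chrng, each lowest without HFSC KO replicate 3.

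Calls over all genes moved more than 1.5-fold in places. KO against flox on chow called 1898 genes, and 3096 with library totals, 3873 with pan-fibre scaling, 2 with only those groups, 3178 with DESeq2, 9877 with voom, 0 when replicate 3 of chow flox or replicate 2 or 3 of chow KO was left out, and 452, 929 and 7261 when this was replicate 2 of chow flox, 1 of chow KO and 4 of chow flox. KO against flox on HFSC called 3, and 142 with DESeq2, 33 with voom, 22 with no filter and 0 to 20 with 1 library left out. HFSC against chow in flox called 69, and 31 with pan-fibre scaling, 4 with only those groups, 364 with DESeq2, 4145 with voom and 15 to 1456 with 1 library left out, the most without chow flox replicate 4. HFSC against chow in KO called 4201, and 7116 with voom and 1459 (without chow KO replicate 3) to 6112 with 1 left out. Averaged over genotypes, the diet called 2499, and 1559 with library totals, 1504 with the replicate block, 5732 with voom and 1217 to 4048 with 1 left out. In KO against flox on chow, library totals moved the median of all genes to -0.35 and pan-fibre scaling to -0.45.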
